A study of Mus musculus with 6 samples.

Results

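The genes described here are the brain's stress axis and glucocorticoid response genes: the peptide and receptor genes Crh, Crhbp, Crhr1, Crhr2, Nr3c1 and Nr3c2, the enzyme gene Hsd11b1, and the glucocorticoid-induced genes Fkbp5, Tsc22d3 and Sgk1. The 10 genes were listed by name, and every non-control probe whose gene name in the scanner files was one of them was taken. This gave 9 genes of 20661 named on the array, with 20 of its 41174 probes, and Crh is not analysed here. RNA came from whole prefrontal cortex, dissected fresh, of 3 mice of the BTBR T+ Itpr3tf/J strain and 3 of the C57BL/6J strain. All were male, 5 months old and given no drug. BTBR mice lack a corpus callosum, show little social approach and are used to model autism, and C57BL/6J served as the control strain. Each mouse gave 1 one-colour Agilent array, on which Cy3 brightness reports the abundance of an RNA. The BTBR samples carry BTBR in their titles and genotype, while their strain background field reads C57BL/6J. The strains differ at many loci at once, so a difference here cannot be assigned to a single allele.

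Corticotropin-releasing hormone (CRH) starts the hormonal stress response from the hypothalamus and also acts as a local transmitter in cortex, through the receptors CRHR1 and CRHR2 and against a binding protein, CRHBP, that captures the free peptide. The axis ends in corticosterone, which enters cells and binds the mineralocorticoid receptor (Nr3c2) and the glucocorticoid receptor (Nr3c1). The enzyme encoded by Hsd11b1 regenerates active corticosterone inside cells. Bound receptors move to the nucleus and switch on genes such as Fkbp5, Tsc22d3 and Sgk1, whose RNA therefore serves as a common readout of recent glucocorticoid exposure.

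No gene of the 9 passed the test between the strains. With limma and Benjamini-Hochberg adjustment over 16323 genes, 0 of 9 had an adjusted p under 0.05, against 5.7% of all genes (2.2% higher and 3.5% lower in BTBR), and 1 of 9, Nr3c2, had an unadjusted p under 0.05, against 17.1% of all genes. Across probes, 0 of 19 tested passed, against 5.44% of 30019 probes, and 1 of 19 had an unadjusted p under 0.05, against 16.7%. Means were higher in BTBR for 5 genes and lower for 4, and the median log2 difference, BTBR minus C57BL/6J, was 0.02, beside 0.01 over all genes. Values of the strains did not overlap for 1 of the 9 genes, against 23.7% of all genes. Levels are log2 signals relative to each array's 75th percentile, so 0 is that percentile, 1 unit is a factor of 2, and levels of different probes are not compared.

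Between 28107 and 30675 probes per array were well above background (68.3% to 74.5%), and 0 probes were saturated. Replicates 1 and 2 of each strain shared slide 1 and replicate 3 of each was on slide 2, so within-slide differences are given beside the pooled ones. Slide 2 held 1 mouse of each strain and allows no test. Markers of the dissected tissue's neurons and glia, Slc17a7, Gad1 and Mbp among them, were well above background on all 6 arrays. Markers of striatum varied between mice: the summed signal of 10 such genes, in multiples of the 75th percentile, was 18.3, 62.7 and 15.2 in BTBR replicates 1, 2 and 3, and 27.4, 34.5 and 222 in C57BL/6J replicates 1, 2 and 3. Array C57BL/6J 3 also had the lowest summed signal of 12 excitatory neuron markers, 222, against 258 to 305 in BTBR and 259 and 283 in the other C57BL/6J mice. Choroid plexus markers stood out on C57BL/6J 1, with a sum of 43.4 against 12.5 to 18.5 in BTBR and 12.3 and 17.3 in the other C57BL/6J mice, although Ttr, the defining marker, was well above background on 2 arrays only.

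**Figure D1:**
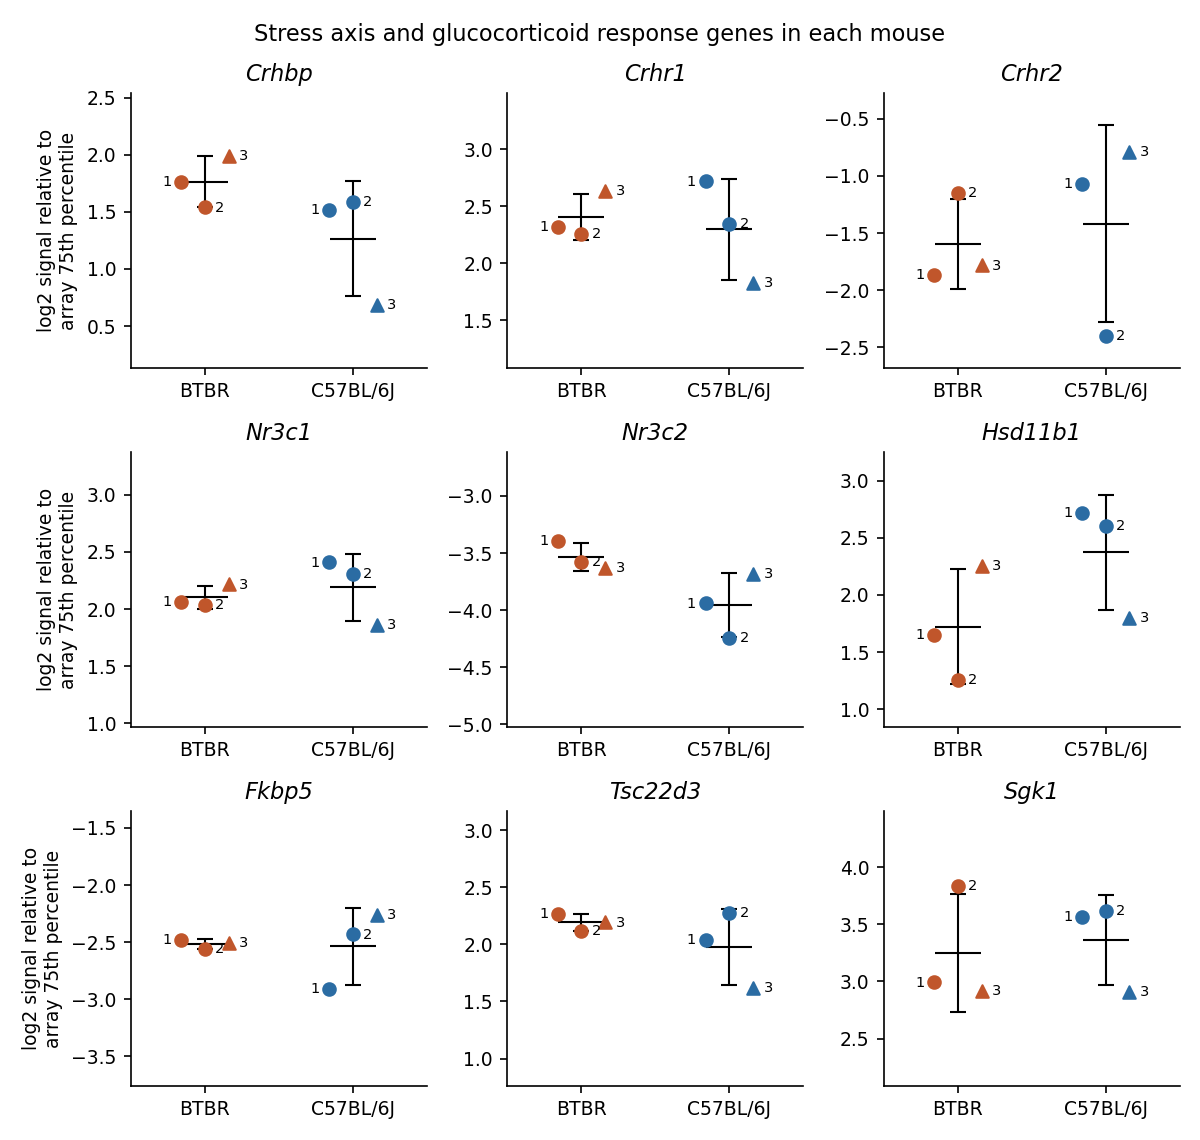
Log2 signal relative to the array's 75th percentile for the brightest probe of each of 9 genes, with BTBR on the left and C57BL/6J on the right of each panel. Points are mice numbered by replicate (circles slide 1, triangles slide 2), bars are mean ± SD (n = 3), and every panel spans the same number of log2 units. Nr3c2 is the sole panel in which the strains do not overlap, and C57BL/6J 3 is the lowest mouse in 5 of the 9 panels.

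Crhbp, the CRH binding protein, had the highest positive mean difference of the 9 genes. Its probe (mm9 chr13:96201903-96201962, minus strand) read 1.76, 1.54 and 1.99 in BTBR mice, and 1.52, 1.59 and 0.68 in C57BL/6J mice. The BTBR values were close to those of the C57BL/6J mice of slide 1, and C57BL/6J 3 lay apart and low. The means were 1.76 ± 0.22 in BTBR and 1.26 ± 0.50 in C57BL/6J (SD, n = 3 each), a log2 difference of 0.50 ± 0.27 (SE, limma adjusted p = 0.429) with a 95% interval of -0.15 to 1.15. Within slide 1 the difference was 0.10, and between the single mice of slide 2 it was 1.31. Leaving out C57BL/6J 3 brought it to 0.21 (limma adjusted p = 0.547). C57BL/6J 3 was also the array with the high striatal and low excitatory marker sums, and the part of these in the Crhbp value was not tested. In bulk tissue, fewer cells of a type and less RNA per cell cannot be told apart.

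Crhr1, the main CRH receptor of cortex, gave the same difference at both of its probes. The brighter one (mm9 chr11:104036691-104036750, plus strand) read 2.32, 2.26 and 2.64 in BTBR mice, and 2.72, 2.34 and 1.83 in C57BL/6J mice, so the C57BL/6J mice spanned the whole BTBR range. The means were 2.40 ± 0.20 in BTBR and 2.30 ± 0.44 in C57BL/6J (SD, n = 3 each), with a log2 difference of 0.11 ± 0.24 (SE, limma adjusted p = 0.898; 95% interval -0.47 to 0.68). The dimmer probe also differed by 0.11. It read -1.88, -2.06 and -1.30 in BTBR mice, and -1.65, -1.80 and -2.13 in C57BL/6J mice, so that BTBR 3 was the highest and C57BL/6J 3 the lowest at this probe, as BTBR 3 was highest in its strain and C57BL/6J 3 lowest at the brighter one. Its sequence is shown because 2 separate stretches of the transcript gave the same result (mm9 chr11:104034643-104034702, plus strand).
Crhr1 probe A_52_P4910: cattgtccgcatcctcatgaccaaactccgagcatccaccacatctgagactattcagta
On both probes the sign turned between slides, at -0.24 and -0.25 within slide 1, and 0.81 and 0.82 between the mice of slide 2. Leaving out C57BL/6J 3 also turned the sign of the brighter probe (-0.13).

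Crhr2, the receptor preferred by the urocortins, varied most among the 9 genes, and its pooled SD within strains exceeded that of 95.8% of all genes. It read -1.87, -1.15 and -1.78 in BTBR mice, and -1.07, -2.40 and -0.79 in C57BL/6J mice (mm9 chr6:55040093-55040152, minus strand). The lowest and the highest of the 6 values were both C57BL/6J mice. The means were -1.60 ± 0.39 in BTBR and -1.42 ± 0.86 in C57BL/6J (SD, n = 3 each), and the log2 difference of -0.18 ± 0.44 (SE, limma adjusted p = 0.907) had a 95% interval of -1.25 to 0.89. In fold terms that interval runs from 0.42 to 1.85 times the C57BL/6J level. Within slide 1 the difference was 0.23, and between the mice of slide 2 it was -0.995, of the opposite sign. C57BL/6J 1 and C57BL/6J 3, the 2 highest C57BL/6J values, were the arrays with the high choroid plexus sum and the high striatal sum, and the part of these tissues was not tested.

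Nr3c1, the glucocorticoid receptor, was among the most evenly measured members in BTBR. Its brightest probe read 2.06, 2.03 and 2.22 in BTBR mice, and 2.41, 2.30 and 1.86 in C57BL/6J mice. The C57BL/6J mice again spanned the BTBR values, with C57BL/6J 3 the lowest. The means were 2.10 ± 0.10 in BTBR and 2.19 ± 0.29 in C57BL/6J (SD, n = 3 each), a log2 difference of -0.09 ± 0.16 (SE, limma adjusted p = 0.872). The 95% interval of -0.48 to 0.31 corresponds to 0.72 to 1.24 times the C57BL/6J level. Its other 3 probes differed by 0.19 ± 0.19, -0.03 ± 0.30 and -0.12 ± 0.20 (SE). All 4 probes had a negative difference within slide 1, from -0.41 to -0.06, and a positive one between the mice of slide 2, from 0.36 to 0.69.

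Nr3c2, the mineralocorticoid receptor, which binds corticosterone at lower concentrations than the glucocorticoid receptor does, was the sole gene of the 9 whose strains did not overlap. Its brightest probe read -3.39, -3.57 and -3.63 in BTBR mice, and -3.94, -4.24 and -3.68 in C57BL/6J mice, so the lowest BTBR mouse and the highest C57BL/6J mouse, both on slide 2, were 0.05 apart. The means were -3.53 ± 0.12 in BTBR and -3.95 ± 0.28 in C57BL/6J (SD, n = 3 each), a log2 difference of 0.42 ± 0.16 (SE; 95% interval 0.03 to 0.82). The unadjusted p was 0.0399 and the limma adjusted p 0.260, so the gene did not pass. Its second probe, further along the same strand, had overlapping strains, at -3.67, -3.55 and -4.08 in BTBR mice, and -3.99, -4.15 and -3.68 in C57BL/6J mice, with a difference of 0.17 ± 0.19 (SE). Both sequences are shown because the probes lie close together and differ in whether the strains overlap (mm9 chr8:79432389-79432448 and chr8:79432928-79432987, plus strand).
Nr3c2 probe A_51_P377914: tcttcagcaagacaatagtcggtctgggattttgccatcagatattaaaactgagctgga
Nr3c2 probe A_52_P378137: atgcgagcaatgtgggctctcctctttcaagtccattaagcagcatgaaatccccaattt
A further Nr3c2 probe was well above background on 0 BTBR arrays and 1 C57BL/6J array and was not tested. Within slide 1 the difference at the brightest probe was 0.61 (limma adjusted p = 0.104) and between the mice of slide 2 it was 0.05. With normexp background correction, after which the brightest probe was chosen anew, the Nr3c2 difference was -0.05. Weights that let less typical arrays count less took the difference at the brightest probe to 0.64 and past the test (limma adjusted p = 0.0313).

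Hsd11b1 had the largest mean difference of the 9 genes in either direction. Its enzyme turns inert 11-dehydrocorticosterone back into corticosterone. The single probe (mm9 chr1:195048169-195048228, minus strand) read 1.65, 1.26 and 2.26 in BTBR mice, and 2.72, 2.60 and 1.80 in C57BL/6J mice. BTBR 1 and BTBR 2 were the lowest mice and C57BL/6J 1 and C57BL/6J 2 the highest, while on slide 2 the order was the other way. The means were 1.72 ± 0.50 in BTBR and 2.37 ± 0.50 in C57BL/6J (SD, n = 3 each), a log2 difference of -0.65 ± 0.34 (SE, limma adjusted p = 0.411; 95% interval -1.47 to 0.16). Within slide 1 it was -1.21 and passed the test (limma adjusted p = 0.0260), and between the single mice of slide 2 it was 0.46, of the opposite sign. Over the other alternatives the adjusted p ran from 0.0599 to 0.820, and the difference was -0.94 without C57BL/6J 3, -0.92 without BTBR 3 and -0.42 without BTBR 2. With the slide as a block the adjusted p was 0.444, and without the 2 arrays with the most striatal marker signal, C57BL/6J 3 and BTBR 2, a setting chosen after seeing the data, the difference was -0.71 (limma adjusted p = 0.212).

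**Figure D2:**
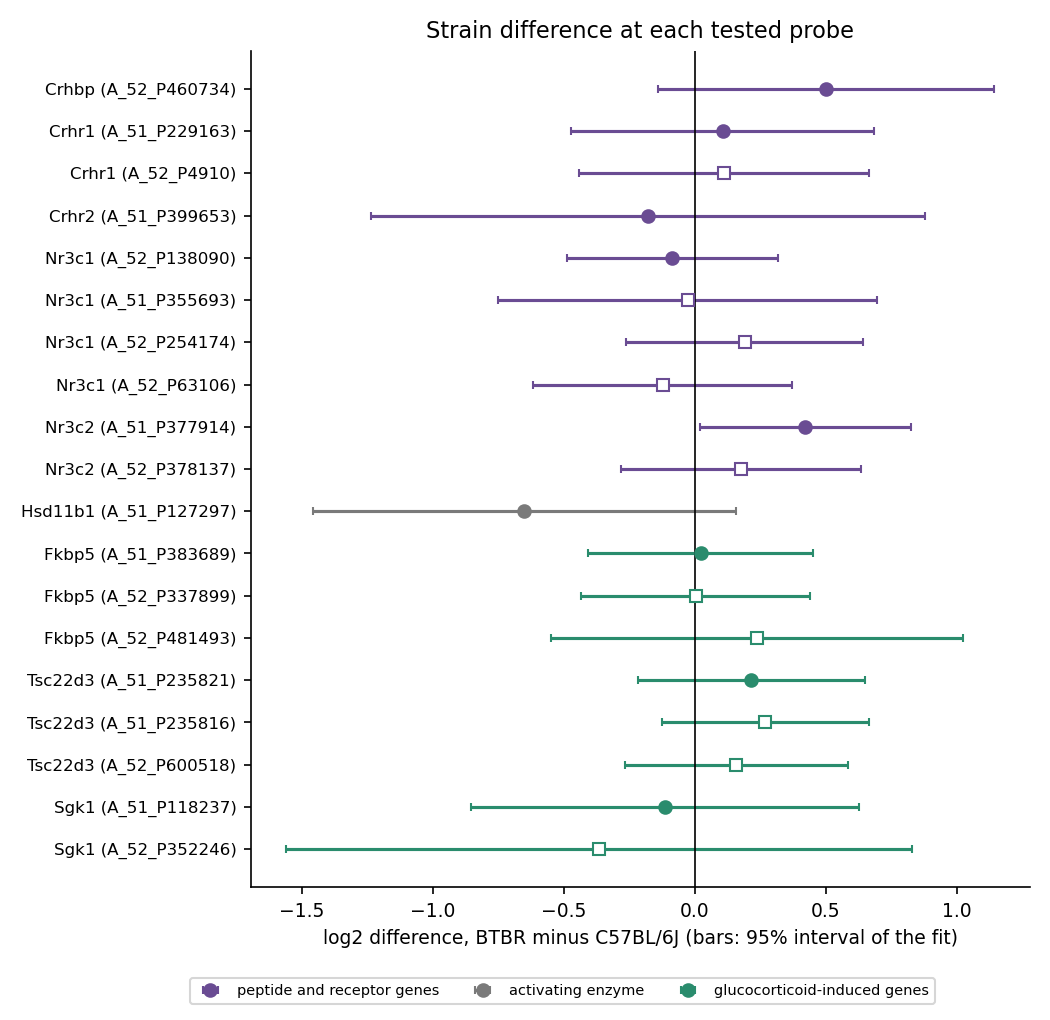
Log2 difference, BTBR minus C57BL/6J, at each of the 19 tested probes with its 95% interval from the limma fit over all probes (3 mice per strain). Filled circles are the brightest probe of a gene and open squares its other probes, coloured by class, and the interval of 1 probe, the brightest of Nr3c2, does not include 0 before adjustment.

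The glucocorticoid-induced genes were measured at 8 probes, and 0 passed (lowest limma adjusted p over probes 0.508). Fkbp5 encodes an immunophilin that binds the receptor complex, lowers its affinity for hormone and is itself induced by it. Its brightest probe (mm9 chr17:28536878-28536937, minus strand) read -2.48, -2.56 and -2.51 in BTBR mice, and -2.91, -2.43 and -2.26 in C57BL/6J mice. The BTBR mice were nearly level with each other and inside the C57BL/6J range. The means were -2.51 ± 0.04 in BTBR and -2.54 ± 0.34 in C57BL/6J (SD, n = 3 each), with a log2 difference of 0.02 ± 0.18 (SE, limma adjusted p = 0.978). Its 95% interval, -0.40 to 0.45, corresponds to 0.76 to 1.36 times the C57BL/6J level. The sign turned between slides, with 0.15 within slide 1 and -0.24 between the mice of slide 2.

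The other Fkbp5 probes differed by 0.00 and 0.24. The probe with 0.24, which lies upstream of the others on the minus strand, read -2.81, -1.81 and -3.05 in BTBR mice, and -3.01, -2.77 and -2.60 in C57BL/6J mice. BTBR 2 was the highest of the 6 mice at this probe and the lowest of the BTBR mice at the brightest one, so the probes did not rank the mice alike. BTBR 2 was also the array with the high olfactory bulb sum, and the part of this in the Fkbp5 values was not tested. The probe's sequence is shown as the one Fkbp5 stretch at which a single mouse stood well above the rest (mm9 chr17:28574995-28575054, minus strand).
Fkbp5 probe A_52_P481493: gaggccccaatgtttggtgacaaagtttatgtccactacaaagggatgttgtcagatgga

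Tsc22d3 encodes GILZ, a leucine zipper protein that mediates anti-inflammatory actions of glucocorticoids. Its brightest probe (mm9 chrX:137074393-137074452, minus strand) read 2.26, 2.12 and 2.19 in BTBR mice, and 2.04, 2.27 and 1.62 in C57BL/6J mice. C57BL/6J 2 was as high as the highest BTBR mouse, and C57BL/6J 3 was the lowest. The means were 2.19 ± 0.07 in BTBR and 1.98 ± 0.33 in C57BL/6J (SD, n = 3 each), a log2 difference of 0.22 ± 0.18 (SE, limma adjusted p = 0.646; 95% interval -0.21 to 0.64). The other 2 probes differed by 0.27 and 0.16, and C57BL/6J 3 was the lowest mouse at all 3. Within slide 1 the difference was 0.03, between the mice of slide 2 it was 0.58, and without C57BL/6J 3 it was 0.03 (limma adjusted p = 0.917).

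Sgk1 encodes a kinase that acts on ion channels and transporters and is induced through both corticosteroid receptors. Its bright probe (mm9 chr10:21719390-21719449, plus strand) read 2.99, 3.84 and 2.92 in BTBR mice, and 3.57, 3.62 and 2.91 in C57BL/6J mice. Each strain had high and low mice, and both mice of slide 2 were low. BTBR 2, the highest mouse, was the array with the high olfactory bulb sum, and the part of this in the Sgk1 values was not tested. The means were 3.25 ± 0.51 in BTBR and 3.36 ± 0.39 in C57BL/6J (SD, n = 3 each), with a log2 difference of -0.11 ± 0.31 (SE, limma adjusted p = 0.918; 95% interval -0.86 to 0.63). The difference was -0.18 within slide 1 and 0.01 between the mice of slide 2, and without C57BL/6J 3 and BTBR 2 it was -0.64 (limma adjusted p = 0.0548). Oligodendrocytes are a known site of Sgk1 expression, and the summed signal of 12 oligodendrocyte markers was 110 to 124 in BTBR and 151 to 186 in C57BL/6J. At the brightest probe of each marker, 12 of 12 means were lower in BTBR and 5 passed the test. The other Mbp probes differed by 0.47 ± 0.14 and -0.44 ± 0.23 (SE), so 1 of them went the other way. The part of oligodendrocytes in the Sgk1 values was not tested. A second, dim Sgk1 probe upstream, well above background on 1 BTBR array and 2 C57BL/6J arrays, differed by -0.37 ± 0.50 (SE).

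One Sgk1 start site carries the textbook glucocorticoid response element, a palindrome to which a pair of receptor molecules binds. The search used the letters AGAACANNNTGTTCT, AGAACA, ACANNNTGT and the cyclic AMP response element TGACGTCA, on both strands, in the 250 bases before each start, and the first motif contains AGAACA and ACANNNTGT. RefSeq (GRCm38.p6) gave 15 start sites for 8 of the genes. The full palindrome was found before 1 of the 15, at Sgk1, and before 0.00913% of all 32851 start sites. AGAACA was found before 4 of the 15, of Sgk1 and Tsc22d3 (16.1% of all), ACANNNTGT before 2, both of Sgk1 (5.84% of all), and TGACGTCA before 0 of 15 (1.55% of all). Capitals mark the palindrome, at positions -189 to -175 from the start, in chr10:21993640-21993889 (plus strand, a build other than that of the probes).
Sgk1 promoter: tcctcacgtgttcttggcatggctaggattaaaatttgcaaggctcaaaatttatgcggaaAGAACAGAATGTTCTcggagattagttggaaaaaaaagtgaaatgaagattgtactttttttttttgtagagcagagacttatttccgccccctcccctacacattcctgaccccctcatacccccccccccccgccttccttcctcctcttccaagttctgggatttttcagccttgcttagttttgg
A match of letters describes the sequence and says nothing of receptor binding in these mice.

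The classes were compared array by array as the median deviation of their genes from each gene's mean over the 6 mice. Over the 5 peptide and receptor genes, it was -0.03, 0.03 and 0.11 on the BTBR arrays, and 0.26, -0.01 and -0.29 on the C57BL/6J arrays. Over the 3 glucocorticoid-induced genes it was 0.05, 0.04 and 0.02 on the BTBR arrays, and -0.04, 0.19 and -0.40 on the C57BL/6J arrays. Both class medians spanned less among the BTBR arrays than among the C57BL/6J arrays, and both were lowest on C57BL/6J 3. Single genes did not all follow: the SD was smaller in BTBR for 7 of the 9 genes, beside 55.5% of all genes, and Sgk1 had an SD of 0.51 in BTBR and 0.39 in C57BL/6J. The median of the gene differences was 0.11 for the peptide and receptor class and 0.02 for the induced class. C57BL/6J 3 was the lowest of the 6 mice for 5 of 9 genes and the highest for 2. The same count over all genes was not made, so it is not known whether these genes differ from others in this.

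**Figure D3:**
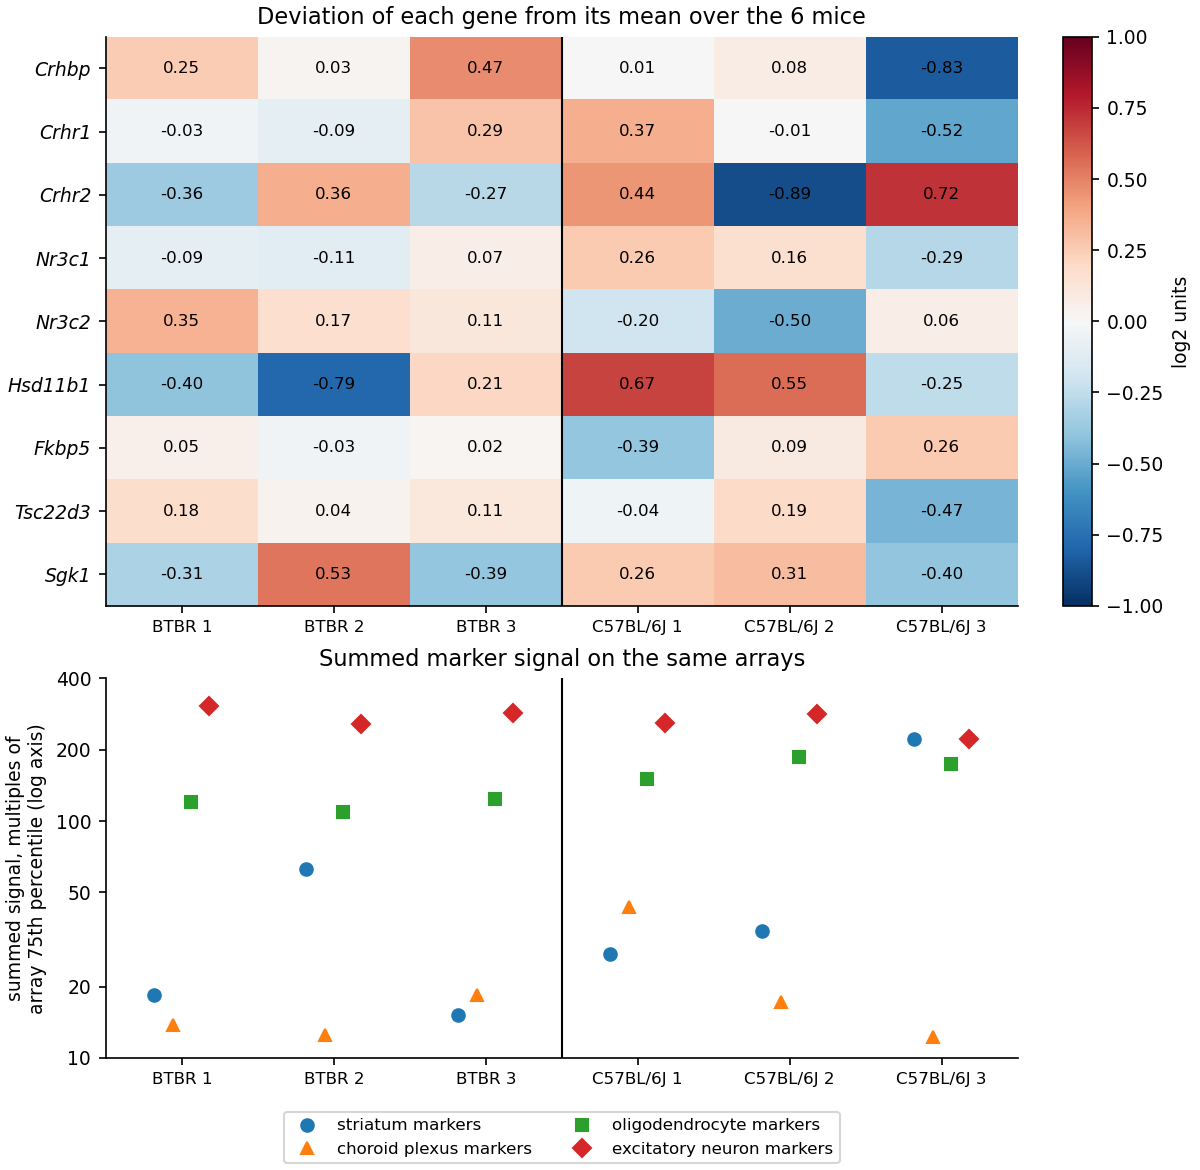
Top, log2 deviation of each of 9 genes from its mean over the 6 mice, BTBR replicates left of the line and C57BL/6J replicates right of it. Bottom, summed signal of 4 marker lists on the same arrays, in multiples of the array's 75th percentile on a log axis; C57BL/6J 3 has the lowest Crhbp, Crhr1, Nr3c1, Tsc22d3 and Sgk1 values and a striatal sum of 222.

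By root-mean-square difference of the deviations over the 6 mice, the genes most like Fkbp5 among 15256 compared were Slc41a1 (0.0317 log2 units), a magnesium transporter, Fgfr1 (0.0398), a fibroblast growth factor receptor, and Usp27x (0.0596), a deubiquitinating enzyme. Only the brightest Fkbp5 probe was compared. How close the nearest of so many genes would lie by chance over 6 mice was not computed, so the list does not show shared regulation.

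Around these genes, 123 others of the stress and glucocorticoid pathways were listed in 5 groups, of which 109 were tested. Of these 7 passed (6.42%, against 5.7% of all genes), 4 higher and 3 lower in BTBR, and 18.3% had an unadjusted p under 0.05, against 17.1% of all genes. By list, the share called ran from 0% for the chaperones to 14.3% for the steroid enzymes and carriers. The share with an unadjusted p under 0.05 ran from 5.26% for the chaperones to 31.2% for the glucocorticoid-induced genes.

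Among the CRH family and other stress peptides, 21 of 24 were tested, 0 passed higher and 1 lower. Cort, which encodes cortistatin, a somatostatin-like peptide of cortical interneurons, read -0.82, -0.92 and -1.28 in BTBR mice, and 0.995, 1.25 and 0.41 in C57BL/6J mice. It fell 3.71-fold in BTBR (log2 -1.89 ± 0.24 SE, limma adjusted p = 0.00825), with -1.996 within slide 1 and -1.68 on slide 2. The summed signal of 14 interneuron markers was 291 to 326 in BTBR and 294 to 375 in C57BL/6J, and 0 of the 14 passed. The highest sum, 375, was on C57BL/6J 3, the array with the high striatal sum, and the sum includes Penk, which is also on the striatal list. By median deviation the 14 markers stood at 0.04, 0.14 and 0.08 on the BTBR arrays. On the C57BL/6J arrays they stood at 0.07, -0.05 and -0.05, so C57BL/6J 3 was not the highest by this measure. The part of interneuron content in the Cort values was not tested. Tac2 (0.99 ± 0.26 SE, limma adjusted p = 0.101), the neurokinin B precursor, and Pnoc (0.52 ± 0.21 SE, limma adjusted p = 0.283), the nociceptin precursor, did not pass although their strains did not overlap. The other Pnoc probe differed by 0.10 ± 0.20 (SE). Without C57BL/6J 3 Tac2 passed (0.69, limma adjusted p = 0.0458). Mc2r, the corticotropin receptor, differed by 0.22 ± 0.15 (SE, limma adjusted p = 0.561). Pomc, the corticotropin precursor, chosen for its outlying mouse, read 0.41, 0.45 and 0.39 in BTBR mice, and -0.22, -0.15 and 1.57 in C57BL/6J mice. The pituitary markers Gh and Prl were highest in their strain on C57BL/6J 3, the outlying mouse. They were highest of the 6 mice on BTBR 3, where Pomc read 0.39. The part of pituitary tissue in the Pomc values was not tested. The urocortin genes Ucn2 and Ucn3 were well above background on at most 2 arrays and were not tested.

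Of the genes for corticosteroid synthesis, inactivation and transport, 14 of 21 were tested, 1 passed higher and 1 lower. Srd5a1, a reductase that inactivates corticosterone and starts neurosteroid synthesis, read -0.24, -0.23 and -0.20 in BTBR mice, and 0.82, 0.66 and 0.57 in C57BL/6J mice. It fell 1.87-fold in BTBR (log2 -0.90 ± 0.10 SE, limma adjusted p = 0.00456). Its second probe was well above background on 0 BTBR arrays and 3 C57BL/6J arrays, so it entered through C57BL/6J alone and is not used as a test. It gives a bound only, at least 5.42-fold lower in BTBR against the dimmest measurable signal. Hsd3b1, which makes progesterone from pregnenolone, read -2.75, -3.28 and -2.59 in BTBR mice, and -4.45, -4.04 and -4.13 in C57BL/6J mice. It was 2.52-fold higher in BTBR (1.33 ± 0.21 SE, limma adjusted p = 0.0176), but it belongs to a family of near-identical copies that a probe may not separate, and normexp took it to 0.45 (limma adjusted p = 0.919). Its call was also lost without BTBR 1, C57BL/6J 1 or C57BL/6J 2 (limma adjusted p = 0.0825, 0.0682 and 0.0558).

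H6pd supplies the cofactor that lets the Hsd11b1 enzyme run in its activating direction. It read -1.43, -1.60 and -1.40 in BTBR mice, and -0.75, -0.75 and -1.13 in C57BL/6J mice, and every BTBR mouse was below every C57BL/6J mouse. Its difference of -0.60 ± 0.14 (SE) had a limma adjusted p of 0.0668 and did not pass, while its other probe, at -0.48 ± 0.10 (SE), had a limma adjusted p over probes of 0.0498. Both slides gave the same sign, -0.77 within slide 1 and -0.27 on slide 2, unlike Hsd11b1 itself, and without C57BL/6J 3 it passed (-0.73, limma adjusted p = 0.0235). Hsd11b2, the inactivating enzyme, was well above background on 0 arrays and was not tested. Akr1c14, which forms reduced neurosteroids, differed by 0.49 ± 0.16 (SE, limma adjusted p = 0.181).

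The chaperones that fold and hold the unbound receptor showed 0 called genes of 19 tested (20 listed), with 1 at an unadjusted p under 0.05 in limma. Ppp5c, a phosphatase of the receptor complex, differed by -0.41 ± 0.13 (SE, limma adjusted p = 0.170), while its second probe stood at 0.12. Hsp90aa1, the inducible HSP90 chaperone, differed by 0.21 ± 0.09 (SE, limma adjusted p = 0.293), St13 by 0.19 and Dnajb1 by 0.15. The other St13 probes stood at -0.42 and 0.26, and that of Dnajb1 at 0.01. Of 23 tested coregulators (24 listed) 1 passed, Med1, a Mediator subunit that contacts nuclear receptors. It read 2.32, 2.47 and 2.38 in BTBR mice, and 2.003, 1.70 and 1.80 in C57BL/6J mice, and was 1.47-fold higher (0.55 ± 0.11 SE, limma adjusted p = 0.0426). Its other probes differed by -0.09 and 0.22, and the mean of its probes did not pass (0.23, limma adjusted p = 0.288). The call was lost with the slide as a block (limma adjusted p = 0.0683) and whichever mouse was left out (limma adjusted p from 0.0516 to 0.159). Cbx3 (-0.22), Sirt1 (0.37) and Ep300 (0.24) did not pass, with limma adjusted p from 0.261 to 0.369, and their other tested probes stood at 0.08, 0.06 and 0.08.

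A wider set of genes known to be induced by glucocorticoids held 34 genes, of which 32 were tested, 2 passed higher and 1 lower, with a median difference of 0.13 beside 0.01 over all genes. Means were higher in BTBR for 21 and lower for 11, and over all genes 51.5% were higher. Of the 32, 10 had an unadjusted p under 0.05 (31.2%, against 17.1% of all genes), and the strains were apart for 10 (31.2%, against 23.7% of all genes). Those with an unadjusted p under 0.05 went both ways, and more of them were lower than higher in BTBR. Acer2, an alkaline ceramidase, read 0.56, -0.02 and 0.31 in BTBR mice, and -1.17, -1.13 and -0.86 in C57BL/6J mice, and rose 2.53-fold in BTBR (1.34 ± 0.18 SE, limma adjusted p = 0.0089). Mfsd2a, a lipid transporter of brain endothelium, read 2.59, 2.73 and 2.48 in BTBR mice, and 1.82, 1.90 and 1.81 in C57BL/6J mice, and rose 1.69-fold (0.76 ± 0.10 SE, limma adjusted p = 0.00934). Without BTBR 1 the Mfsd2a call was lost (limma adjusted p = 0.0582), and with normexp the Acer2 call was (limma adjusted p = 0.0588). The summed endothelial and pericyte markers were 53.1 to 55.3 in BTBR and 52.8 to 57.1 in C57BL/6J.

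In the opposite direction, Mt2, a metallothionein, read 5.499, 5.58 and 5.46 in BTBR mice, and 6.17, 6.23 and 6.03 in C57BL/6J mice, and fell 1.55-fold (-0.63 ± 0.10 SE, limma adjusted p = 0.0161). Its call was lost with normexp (limma adjusted p = 0.172) and without BTBR 1, BTBR 3, C57BL/6J 1 or C57BL/6J 2 (limma adjusted p from 0.0573 to 0.0952). Per1, a clock gene that glucocorticoids also induce, read 1.49, 1.34 and 1.30 in BTBR mice, and 1.77, 1.94 and 2.26 in C57BL/6J mice, with -0.62 ± 0.15 (SE, limma adjusted p = 0.0747), and did not pass.

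**Figure D4:**
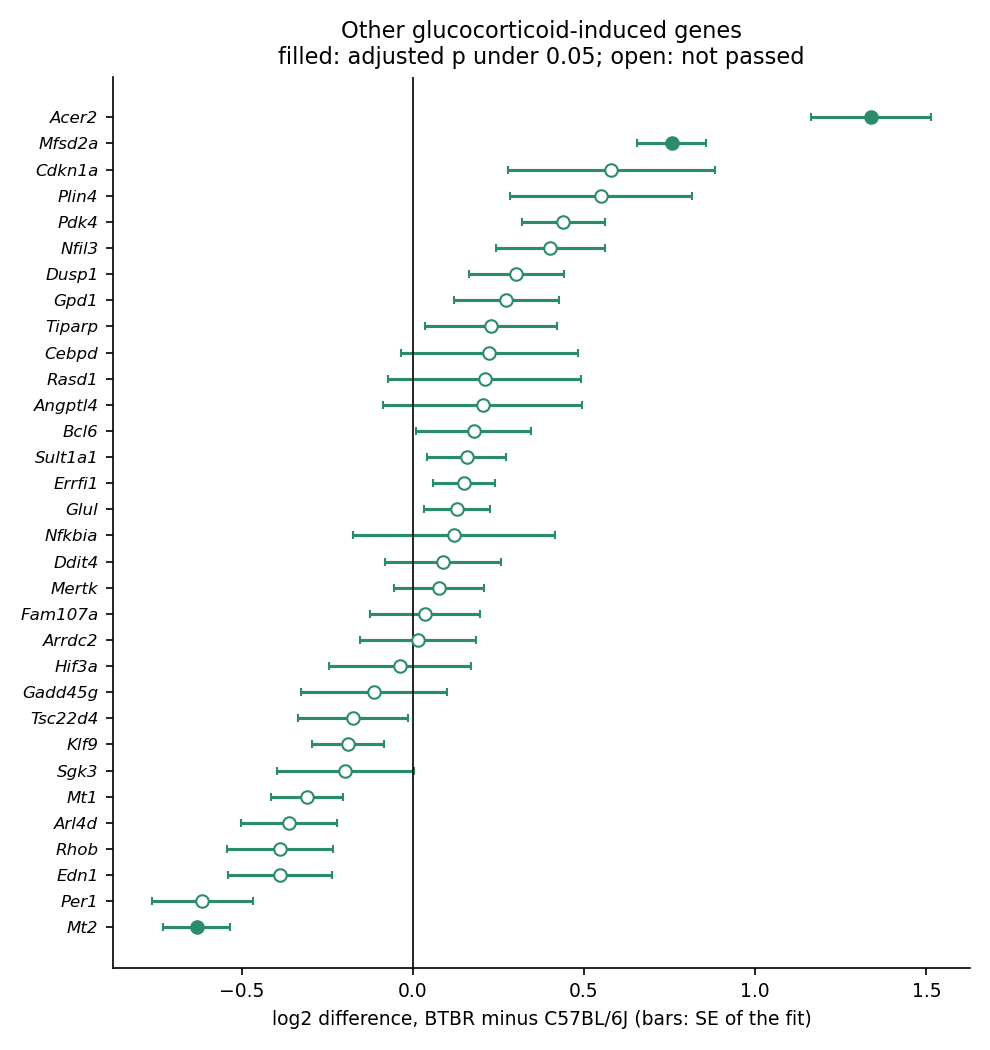
Log2 difference, BTBR minus C57BL/6J, with its SE for 32 other glucocorticoid-induced genes, ordered by difference (3 mice per strain). Filled points passed limma's test at an adjusted p under 0.05: Acer2 and Mfsd2a were higher and Mt2 lower in BTBR, and no other gene passed.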

How the data were processed

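Per the labels' protocols, 0.5 µg of column-purified RNA with an integrity number of 9 was labelled with Cy3 and hybridised to Agilent arrays. The intensities used are the scanner files' processed signals as deposited, made by Feature Extraction (version 10.7.3.1 per the file headers, 9.1 per the submitters' processing notes). The deposited value table holds log2 values from the authors whose centring is not stated (column medians 8.82 to 8.83, shared maximum 18.8057). Strain differences in it correlated at 0.895 with those of the scanner values, with a slope of 0.549, and it was used as an alternative only. Here log2 processed signal minus each array's 75th percentile over 41174 non-control probes was used. Outlier spots were left out only where the same probe had an unflagged spot on that array. A probe entered when well above background on at least 3 of 6 arrays (30019 probes). The brightest such probe stood for its gene (16323 genes). Strain differences were tested in R 4.3.3 by limma 3.58.1, using lmFit and eBayes with Benjamini-Hochberg adjustment and a threshold of 0.05. Fits were tested on simulated data with 3 arrays per strain. Each of 5 runs changed 200 of the 16323 genes and drew noise for each gene independently. There 22.8% of genes changed 1.5-fold and 58% of genes changed 2-fold were called, and 6.41% of calls were false. Differences between mice that many genes share, such as striatal signal, were not simulated, so these shares need not hold for the real arrays. Genes were named through accessions or symbols in RefSeq where these matched and by the file otherwise. Probe positions are those in the scanner files (mm9), and exons and UTRs were not assigned. The number of arrays, 1 per mouse, limits the precision.

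The members, gene lists and tests were chosen with earlier results of these data known. Genes named beyond the members are those of each list that passed the test and up to 4 with its smallest p, the defining markers, and the 3 genes nearest Fkbp5 in pattern. Pomc, Ucn2, Ucn3 and Hsd11b2 fall outside this rule and were added after their values were seen. Crh is not analysed here. Replicate numbers were not taken to pair the mice. Deviations of same-numbered mice correlated at 0.06, -0.15 and -0.07 across genes, and those of differently numbered mice at -0.26 to 0.32. With 3 mice per strain, each centred on its strain's mean, these values cannot show that pairing was absent. Alternatives covered background correction, scaling, filter, probe choice, spots, the authors' values, prior, array weights (gene-by-gene method), slide and replicate blocks, and mice left out.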

Additional observations from a re-analysis of the deposited data

How the results depend on the processing

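Over 20 alternatives, 0 of the 9 stress axis and glucocorticoid response genes passed in 18. With array weights 1 did (Nr3c2), and within slide 1 1 did (Hsd11b1), likewise 1 probe each. Among the context lists the number called was 7, against 3 with normexp, 11 with array weights and 3 with the replicate block. All genes called numbered 930, against 204 with normexp, 1828 with array weights and 506 with the replicate block, which changed no member's call. Leaving out 1 mouse gave 435 (without BTBR 1) to 913 (without C57BL/6J 3) genes (498 without C57BL/6J 2, 522 without C57BL/6J 1, 571 without BTBR 2), 0 members and 3 (without BTBR 1) to 9 (without C57BL/6J 3) list genes. Without C57BL/6J 1 or C57BL/6J 2, 4 list genes passed. With 1 mouse left out, the median of the peptide and receptor class ran from -0.010 (without BTBR 3) to 0.32 (without C57BL/6J 1), and over all alternatives the lowest was -0.054 (without C57BL/6J 3 and BTBR 2). Signs turned with normexp for Fkbp5 (-0.15), Nr3c2 (-0.047), Mc2r (-0.21) and Ep300 (-0.00308), with array weights for Crhr1 (-0.040) and Crhr2 (0.093), within slide 1 for Crhr1 (-0.24) and Crhr2 (0.23), and without C57BL/6J 3 and BTBR 2 for Crhr1 (-0.054). Differences with 1 mouse left out ran from -0.94 to -0.42 for Hsd11b1, 0.28 to 0.56 for Nr3c2, 0.21 to 0.66 for Crhbp, 0.03 to 0.36 for Tsc22d3, -0.13 to 0.32 for Crhr1, -0.67 to 0.13 for Crhr2, -0.17 to 0.16 for Fkbp5, -0.25 to 0.021 for Nr3c1 and -0.41 to 0.052 for Sgk1. The causes were not tested. Calls of Cort and Srd5a1 held in 20 of 20 alternatives, of Acer2 in 19, Mfsd2a in 17, Mt2 in 14, Hsd3b1 in 13 and Med1 in 6, and H6pd gained a call in 6, Tac2 in 3 and Per1 in 2. The 20 of Srd5a1 include the mean of a gene's probes (-2.13). That setting took in the second Srd5a1 probe, which entered through C57BL/6J alone, and is not used as support for this gene. Dim probes, such as those of Nr3c2 and the upstream Sgk1 probe, are limited by their signal over background.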
